A study of Mus musculus with 8 samples.

Results

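The genes described here encode the enzymes, carriers and binding proteins that bring long-chain fatty acids into heart muscle cells and oxidise them. There were 37 of them among the 55471 genes of the count tables, given as a list of names. They were divided by their place in the pathway into 7 genes of uptake and activation, 7 of the carnitine system, 5 acyl-CoA dehydrogenases, 6 of the hydratase, hydroxyacyl-CoA dehydrogenase and thiolase steps and 3 for unsaturated chains. The electron transfer flavoprotein, the acyl-CoA thioesterases and peroxisomal oxidation were represented by 3 genes each. All 37 had enough counts to be tested.

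RNA was sequenced from small pieces of heart from 4 wild-type (WT) and 4 TAZG197V mice at 14 weeks of age. TAZG197V mice carry a point mutation of a Barth syndrome patient that exchanges a glycine of Tafazzin for valine, introduced with Cas9, a guide RNA and a repair template in C57BL/6N zygotes. Founders were crossed to C57BL6/J for 2 generations. The study's results describe the mutants used as hemizygous males, whereas its methods and the labels speak of homozygous offspring. Taz is on the X chromosome. No treatment was given to either genotype, and the labels state neither the founder line of each mouse nor the part of the heart taken.

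Long-chain fatty acids are the main fuel of the adult heart. They enter the cardiomyocyte through CD36 and transport proteins, are bound by FABP3 in the cytosol and are coupled to coenzyme A by acyl-CoA synthetases. The acyl group is passed to carnitine by CPT1 at the outer mitochondrial membrane, carried across the inner membrane and returned to coenzyme A by CPT2. Each turn of the matrix spiral then consists of a dehydrogenation, a hydration, a further dehydrogenation and a thiolytic cleavage, and the electrons of the first step reach the respiratory chain through the electron transfer flavoprotein. Tafazzin remodels cardiolipin, the phospholipid of the inner membrane in which part of this machinery is anchored.

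Total counts per library ran from 23055689 to 36301031. Levels are given as CPM, the count of a gene relative to its library size after TMM scaling, as mean ± SD of the 4 hearts of a genotype. The edited gene Taz measured 60.9 ± 2.36 CPM in WT against 47.3 ± 2.6 CPM in TAZG197V (log2 fold change -0.37, edgeR adjusted p = 0.00124), and with libraries scaled to 9 ventricular markers it was at -0.12 and was not called (edgeR adjusted p = 0.199). The counts do not show the base at the edited position. Ventricular cardiomyocyte markers were high in all libraries, with Myh6 at 18324 to 26587 CPM, whereas 5 skeletal muscle markers summed to at most 0.981 CPM. Some libraries stood apart by markers of other tissues. WT 2 held the most atrial RNA, at a summed 1094 CPM over 5 markers against 4.24 to 130 CPM in the other 7 libraries. The 130 CPM of TAZG197V 2 were mostly Nppa (126.6 CPM). For Myl4 and Myl7, WT 1 came next after WT 2, at 35.2 and 27 CPM. Its 7 adipocyte markers other than Fabp4 summed to 44 CPM against 0.4 to 6.64 elsewhere. Red cell markers summed to 55072 CPM in WT 4 against 227 to 1065 CPM elsewhere, and 6 brain markers to 107.7 CPM in WT 4 and 273.7 CPM in TAZG197V 4 against 8.91 to 12.2 CPM. The part of these other tissues in the results below was not tested. In bulk tissue, fewer cells of a type and less RNA per cell cannot be told apart.

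To address how the pathway differed between the genotypes, all genes with sufficient counts were fitted with the quasi-likelihood test of edgeR, with 2 surrogate variables as covariates. A gene was called when its Benjamini-Hochberg adjusted p over all 15084 genes tested was under 0.05, it differed by more than a rise of 15% or the inverse fall and its mean scaled count was at least 50. Of the 37 genes, 17 were called lower and 3 higher in TAZG197V, and 17 were not called. Over all genes tested, 33.5% were called, 15.1% lower and 18.5% higher. Among the 12357 genes with a mean count of at least 50, which all members reached, the shares were 18.4% and 22.5%. The median log2 fold change was -0.18 over the members and -0.01 over all genes. When libraries were instead scaled to the sum of 9 ventricular markers, which moved the median of all genes to 0.23, 8 members were called lower and 7 higher, and the median of the members was 0.07, that is 0.15 below that of all genes. Under this scaling 6.01% of all genes tested were called lower and 37.7% higher. With TMM scaling this distance was 0.17.

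The 4 TAZG197V libraries lay below all 4 WT libraries for 14 members and above them for 3. Over all genes tested, the corresponding shares were 13.9% and 19.3%. With scaling to ventricular markers, the TAZG197V libraries lay below all WT libraries for 8 members and above them for 10, against 4.55% and 35% of all genes. All 14 members that lay below with TMM scaling were called lower, while Slc27a1, Mlycd and Acad11 were called lower with overlapping genotypes. The counts of all members together made up 1.53% ± 0.0427 of a WT library and 1.37% ± 0.0222 of a TAZG197V library (SD, n = 4 each). They ran from 1.48% to 1.58% in WT and from 1.35% to 1.4% in TAZG197V.

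**Figure D1:**
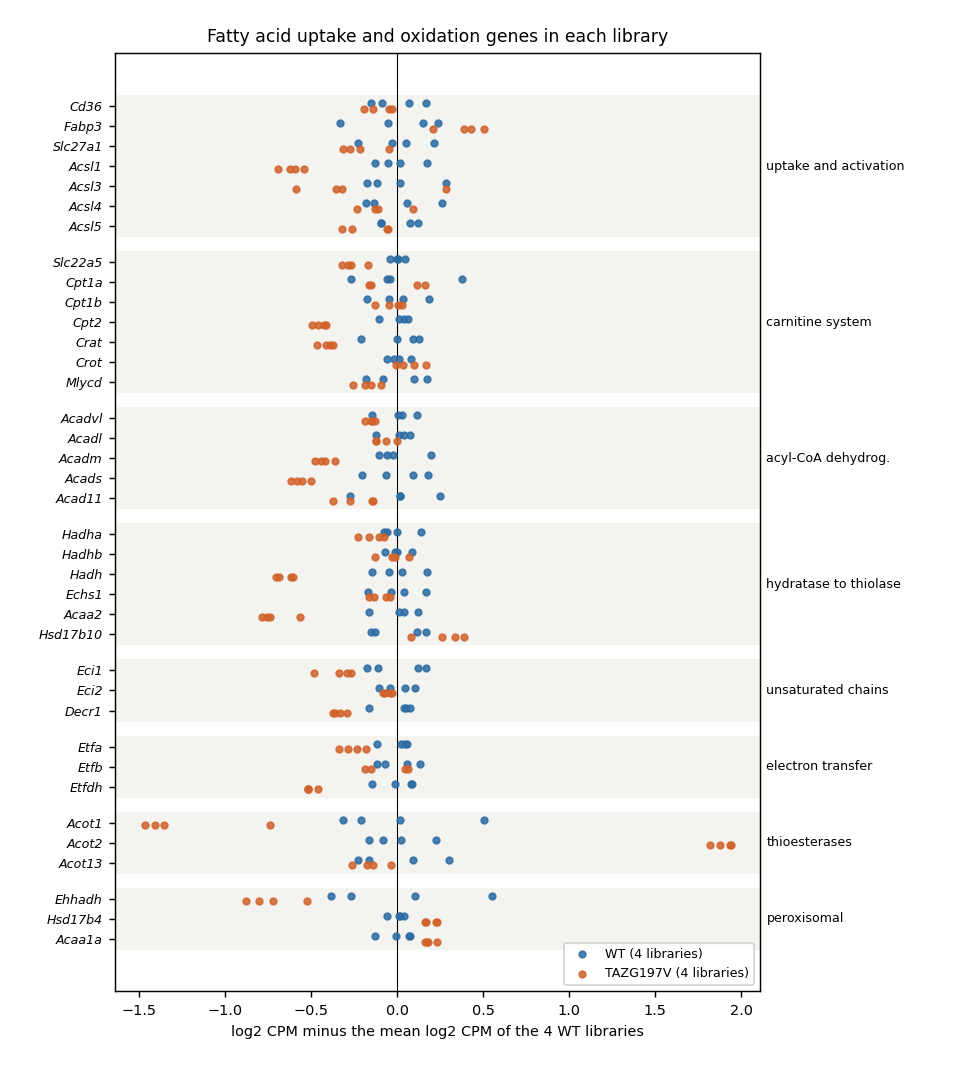
Level of each of the 37 genes in each library, as log2 CPM minus the mean log2 CPM of the 4 WT libraries (x axis), with genes grouped by pathway stage (y axis); blue points are WT and orange points TAZG197V libraries. Orange points lie left of all blue points for 14 genes and right of them for Acot2, Hsd17b4 and Acaa1a.

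**Figure D2:**
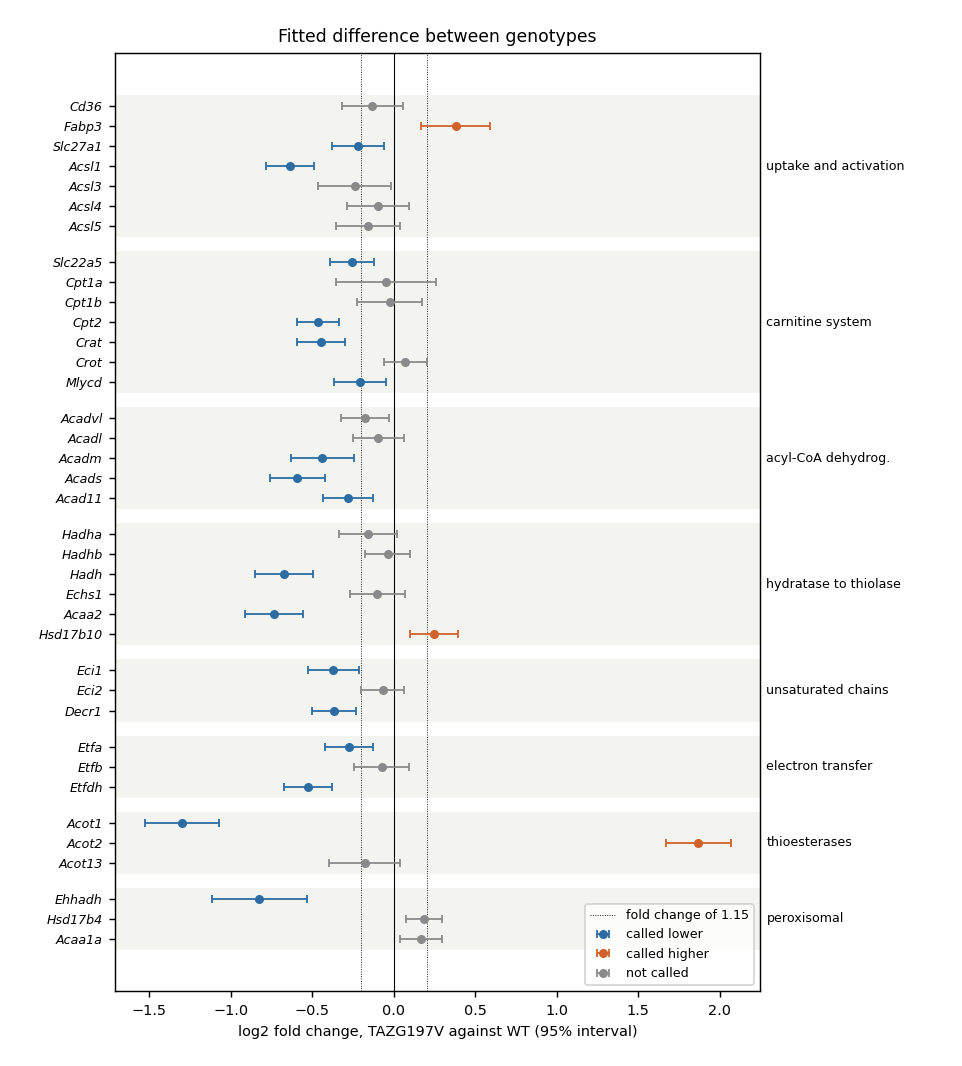
Fitted log2 fold change of TAZG197V against WT with its 95% interval (x axis) for each gene by pathway stage (y axis); blue marks genes called lower, orange those called higher and grey those not called, and dotted lines mark a rise of 15% and the inverse fall. Acot2 at 1.87 and Acot1 at -1.30 lie at the ends of the range. The positions hold for TMM scaling, and with scaling to ventricular markers 16 genes that lie left of 0 here lie right of it.

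Among the genes of uptake and activation, Acsl1 and Slc27a1 were called lower and Fabp3 was called higher, and the median log2 fold change of the 7 was -0.16. Acsl1 (ENSMUSG00000018796, chromosome 8, 46471037 to 46536051, mm10), the main long-chain acyl-CoA synthetase of the heart, was at 1079, 974.3, 1026 and 1206 CPM in WT 1 to WT 4. It was at 705.6, 660.9, 692.3 and 733.3 CPM in TAZG197V 1 to TAZG197V 4. Every TAZG197V value lay below every WT value. The fitted log2 fold change was -0.64 ± 0.0635 (SE) (edgeR adjusted p = 0.000186), the level fell by 35.7%, and the call was made in all 18 alternative fits.

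Acsl3, Acsl4 and Acsl5, the other synthetases among the 37 genes, were not called. Per kilobase of transcript, Acsl1 was at 274.9 CPM in WT, against 4.33 for Acsl5, 3.55 for Acsl4 and 1.99 for Acsl3. The log2 fold changes were -0.24 for Acsl3 (95% interval -0.46 to -0.02, edgeR adjusted p = 0.0828), -0.16 for Acsl5 (-0.36 to 0.04) and -0.10 for Acsl4 (-0.29 to 0.10). Acsl3 passed without TAZG197V replicate 4 (-0.35, edgeR adjusted p = 0.0482), the library with the most brain RNA, where Acsl3 stood at 9.46 CPM against 5.18 to 6.23 in the other TAZG197V libraries. In WT 4, which held less brain RNA, Acsl3 stood at 9.46 CPM as well, against 6.87 to 7.86 in the other WT libraries.

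Fabp3 (ENSMUSG00000028773, chromosome 4, 130308595 to 130315463), the fatty acid binding protein of heart and muscle, had the highest level of the group per kilobase of transcript, at 966.9 CPM in WT. It was at 872.7, 759.1, 927.3 and 623.8 CPM in WT and at 1031, 1114, 1058 and 908.1 CPM in TAZG197V. The genotypes overlapped through TAZG197V 4, which lay below WT 3. The log2 fold change was 0.38 ± 0.0921 (edgeR adjusted p = 0.0127). The call was lost with lane as covariate (edgeR adjusted p = 0.0608), without surrogate variables (0.0516) and without TAZG197V replicate 2 (0.0538). Of the 50-base windows of its transcripts, 37.3% also occur in another annotated gene, mainly the pseudogene Fabp3-ps1 and the neighbour Zcchc17, so its level is uncertain.

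Cd36, the main fatty acid translocase of the sarcolemma, was at 2195 ± 223 CPM in WT and 2038 ± 106 CPM in TAZG197V, a log2 fold change of -0.13 with a 95% interval of -0.32 to 0.06, so that its lower end corresponds to a change of -19.8%. Slc27a1, which encodes the transport protein FATP1, was at 156.6 ± 19.7 CPM in WT and 134.6 ± 11.1 CPM in TAZG197V. Its call at -0.22 (edgeR adjusted p = 0.0356) was lost in 10 of 18 alternative fits and in 6 of 8 fits without 1 library, among them those without WT replicate 1 (0.121) or WT replicate 4 (0.0956) and those without any of the 4 TAZG197V libraries (0.0726 to 0.12). With scaling to ventricular markers its log2 fold change was 0.01.

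In the carnitine system, Cpt2, Crat, Slc22a5 and Mlycd were called lower and no gene was called higher, and the median of the 7 genes was -0.21. Cpt2 (ENSMUSG00000028607, chromosome 4, 107903981 to 107923610), which returns the acyl group to coenzyme A in the matrix, was at 275.8, 245.7, 271.8 and 266.3 CPM in WT and at 192.4, 187.7, 198.9 and 196.9 CPM in TAZG197V. The highest TAZG197V value was thus well below the lowest WT value. The log2 fold change was -0.46 ± 0.0563 (edgeR adjusted p = 0.000491), and the call was made in all 18 alternative fits.

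Crat, which buffers short-chain acyl groups as carnitine esters, fell from 559.4 ± 56.6 to 418.8 ± 11.9 CPM (-0.44 on the log2 scale, edgeR adjusted p = 0.00109). Slc22a5, the carnitine transporter OCTN2 of the plasma membrane, fell from 26.1 ± 0.617 to 21.7 ± 0.974 CPM (-0.26, edgeR adjusted p = 0.0106). Of its windows, 26.3% occur in other genes, mainly its relative Slc22a21. Both genes had no overlap between genotypes. With scaling to ventricular markers they were at -0.17 and -0.02 and were not called.

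Mlycd encodes malonyl-CoA decarboxylase, which removes the inhibitor of CPT1. It was at 125.3 ± 14.2 CPM in WT and 110.7 ± 5.34 CPM in TAZG197V, with overlapping genotypes. Its call at -0.21 (edgeR adjusted p = 0.045) was made in 5 of 18 alternative fits and in 2 of 8 fits without 1 library. Without WT replicate 3 it was at -0.14 (edgeR adjusted p = 0.134), and without WT replicate 4 at -0.15 (0.244). It was lost as well without any of the 4 TAZG197V libraries (0.0519 to 0.241), and with scaling to ventricular markers its sign turned (0.07). Within lane 7 the means of log2 CPM differed by -0.004 and within lane 8 by -0.34.

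Neither gene for carnitine palmitoyltransferase 1, the regulated entry step, was called. Cpt1a, the form that predominates in liver, was at 56.2, 65, 65.8 and 87.8 CPM in WT and at 73.4, 75.6, 60.9 and 60.5 CPM in TAZG197V. The highest value was that of WT 4, and the genotypes overlapped. The log2 fold change was -0.05 with a wide 95% interval of -0.35 to 0.26. Within lane 7 the difference was 0.30 and within lane 8 it was -0.32, and without both number 4 libraries the fitted value was 0.17.

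Cpt1b, the muscle form, was at 17.2 ± 1.81 CPM in WT and 16.7 ± 0.782 CPM in TAZG197V (log2 fold change -0.02, 95% interval -0.22 to 0.17). The exons of Gm44502 cover 81.4% of its exon sequence. This annotated gene on the same strand was listed at 0 counts in all 8 libraries. How reads lying in both genes were counted was not stated, so the level of Cpt1b is uncertain. Crot, the peroxisomal carnitine octanoyltransferase, was at 42.5 ± 1.74 and 44.7 ± 2.35 CPM (0.07, 95% interval -0.06 to 0.20).

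Among the acyl-CoA dehydrogenases, which introduce the first double bond, 3 of 5 were called lower, and all 5 fitted values were below 0 with TMM scaling (median -0.28). Acads and Acadm act on short and medium chains. Acads (ENSMUSG00000029545, chromosome 5, 115110299 to 115119346) was at 256.7, 196.8, 241.8 and 217.1 CPM in WT and at 151.6, 154.4, 160.5 and 147.7 CPM in TAZG197V. WT 2 was the lowest WT library and still lay above all TAZG197V libraries. Acads fell by 33.6% (log2 fold change -0.59 ± 0.0729, edgeR adjusted p = 0.000519), and it was called in all 18 alternative fits.

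Acadm (ENSMUSG00000062908, chromosome 3, 153922357 to 153944632) fell from 1186 ± 113 to 879.7 ± 29.1 CPM (-0.44, edgeR adjusted p = 0.00464) with no overlap between genotypes. With scaling to ventricular markers it was at -0.19 and was not called. Acadvl, the very long-chain enzyme of the inner membrane, was at 626.2 ± 46.4 and 560.8 ± 9.65 CPM (-0.18, 95% interval -0.32 to -0.03, edgeR adjusted p = 0.0607). Its adjusted p passed with DESeq2 (0.025) and without WT replicate 2 (edgeR, 0.0404), where it was called lower. Exons of Dvl2 on the opposite strand cover 42.9% of its exon sequence, and the strand setting of the counting was not stated. Acadl, the long-chain enzyme of the matrix, was at 1100 ± 63.4 and 1041 ± 43.1 CPM (-0.09, 95% interval -0.25 to 0.06).

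Acad11, which acts on very long chains, was at 167.9 ± 24.6 and 141.8 ± 10.9 CPM, with TAZG197V 1 to 3 inside the range of WT. Its call at -0.28 (edgeR adjusted p = 0.0119) was made in 9 of 18 alternative fits. It was lost without WT replicate 4 (-0.22, edgeR adjusted p = 0.143), without TAZG197V replicate 4 (-0.19, 0.244) and without surrogate variables (-0.24, 0.118), and with scaling to ventricular markers its value was 0.02.

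At the following steps of the spiral, Hadh and Acaa2 were called lower and Hsd17b10 higher, while the trifunctional protein and Echs1 were not called. The median of the 6 genes was -0.13. Acaa2 (ENSMUSG00000036880, chromosome 18, 74779197 to 74806208), the matrix 3-ketoacyl-CoA thiolase of the last step, was at 1080, 886.1, 1021 and 1001 CPM in WT and at 589.3, 577.5, 671.6 and 595 CPM in TAZG197V. The genotypes did not overlap, and TAZG197V 3 was the highest of its group. Acaa2 fell by 39.9% (log2 fold change -0.73 ± 0.0782, edgeR adjusted p = 0.000253).

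Hadh (ENSMUSG00000027984, chromosome 3, 131233419 to 131272101), the 3-hydroxyacyl-CoA dehydrogenase for medium and short chains, was at 807.6, 645.4, 729.9 and 691.1 CPM in WT and at 470.2, 438.8, 465.8 and 444.8 CPM in TAZG197V. All TAZG197V values were again below all WT values. Hadh fell by 37.3% (-0.67 ± 0.0777, edgeR adjusted p = 0.00038). Both Acaa2 and Hadh were called in all 18 alternative fits, with log2 fold changes of -0.46 and -0.41 under scaling to ventricular markers.

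Hadha and Hadhb encode the alpha and beta subunits of the mitochondrial trifunctional protein, which carries out the last 3 steps for long chains at the inner membrane. Both genes lie head to head on chromosome 5 (Hadha, 30118304 to 30155162, minus strand; Hadhb, 30155248 to 30184593, plus strand), and the 85 bases between their annotated starts, of which 69.4% are G or C, are shown because both subunits are transcribed outwards from this stretch (RefSeq promoter sequence, GRCm38, chr5:30155163-30155247, plus strand):
Hadha to Hadhb: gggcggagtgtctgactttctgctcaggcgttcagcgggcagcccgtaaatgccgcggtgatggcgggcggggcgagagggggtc
Hadha was at 1753 ± 123 CPM in WT and 1584 ± 73.3 CPM in TAZG197V (log2 fold change -0.16, 95% interval -0.33 to 0.02, edgeR adjusted p = 0.14). Hadhb was at 264.6 ± 12 and 259.7 ± 14.8 CPM (-0.04, 95% interval -0.18 to 0.10). A fall of either gene of the size found for Hadh or Acaa2 lay outside these intervals. Of the windows of Hadhb, 19.7% occur in other genes.

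Echs1, the short-chain enoyl-CoA hydratase, was at 398.3 ± 39.2 and 369.9 ± 14.4 CPM (-0.10, 95% interval -0.27 to 0.07). Hsd17b10, a dehydrogenase of branched and short-chain acyl groups that is also a subunit of mitochondrial RNase P, was at 122.8, 100.3, 118.8 and 98.4 CPM in WT and at 130.9, 138.4, 143.3 and 115.6 CPM in TAZG197V. TAZG197V 4 lay inside the WT range. Its log2 fold change was 0.25 ± 0.0644 (edgeR adjusted p = 0.0168), and the call was lost without TAZG197V replicate 2 (0.23, edgeR adjusted p = 0.061), without TAZG197V replicate 3 (0.22, 0.0526), without surrogate variables (0.0692) and with lane as covariate (0.0836).

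**Figure D3:**
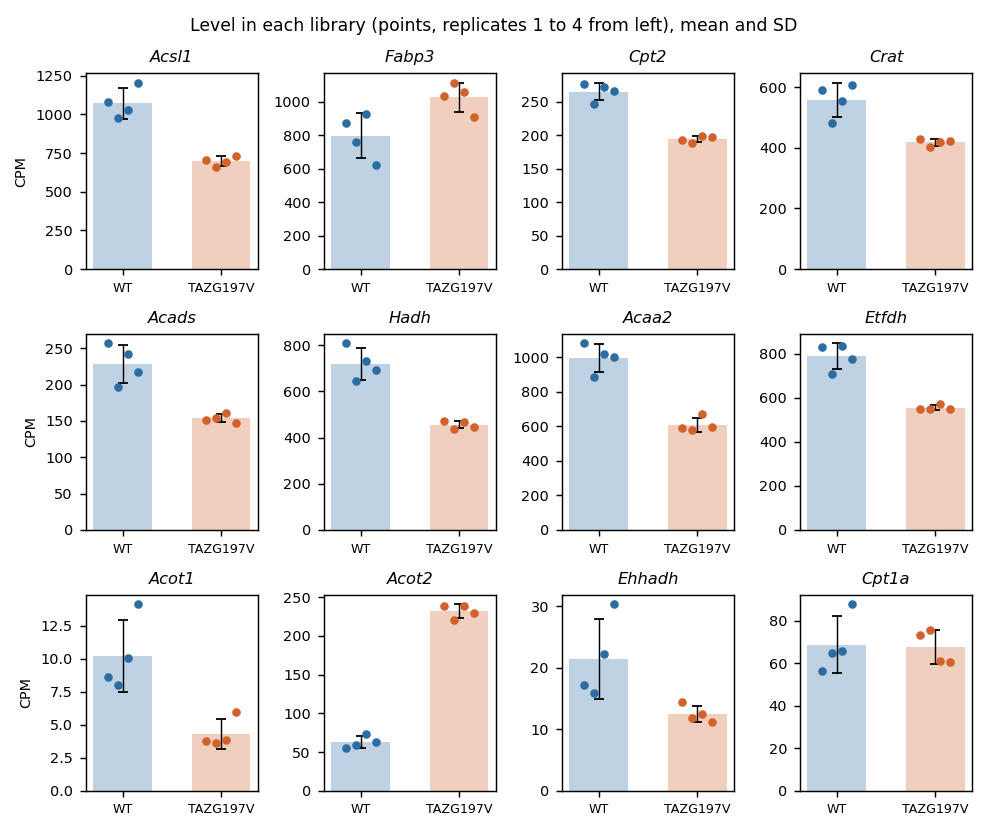
Level in CPM (y axis, starting at 0) of 12 of the genes in WT and TAZG197V hearts; points are the 4 libraries of each genotype in order of replicate number, bars their mean and black lines the SD. Acot2 lies between 220.2 and 239.2 CPM in TAZG197V against 55.7 to 73 CPM in WT, the values of Cpt2, Acads, Hadh, Acaa2 and Etfdh are lower in every TAZG197V library, and those of Cpt1a overlap.

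For unsaturated chains, Eci1 and Decr1 were called lower and Eci2 was not (median -0.37). Eci1, the mitochondrial enoyl-CoA isomerase, fell from 261.9 ± 30.4 to 205.2 ± 13.2 CPM (-0.37, edgeR adjusted p = 0.00357). Decr1, the dienoyl-CoA reductase of the matrix, fell from 494.9 ± 36.9 to 389.9 ± 9.82 CPM (-0.37, edgeR adjusted p = 0.00205), and WT 2 was the lowest WT library at 439.9 CPM. Neither gene overlapped between genotypes, and with scaling to ventricular markers both were at -0.09 and were not called. Eci2, which is found in peroxisomes as well, was at 127.2 ± 8.23 and 122.2 ± 2.03 CPM (-0.07, 95% interval -0.20 to 0.06).

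The electron transfer flavoprotein takes electrons from the acyl-CoA dehydrogenases and hands them to ubiquinone through its oxidoreductase. Etfdh (ENSMUSG00000027809, chromosome 3, 79603788 to 79629500), the oxidoreductase of the inner membrane, was at 829.9, 708, 834.2 and 776.5 CPM in WT and at 548.6, 548.8, 570.6 and 547.5 CPM in TAZG197V. The TAZG197V values were tightly grouped below all WT values. Etfdh fell by 30.5% (log2 fold change -0.52 ± 0.0648, edgeR adjusted p = 0.000525), called in all 18 alternative fits. Etfa, the alpha subunit, fell from 550.7 ± 29.9 to 459.4 ± 21.4 CPM (-0.28, edgeR adjusted p = 0.0107), also without overlap, and was at -0.02 with scaling to ventricular markers. Etfb, the beta subunit, was at 72.6 ± 5.79 and 69.8 ± 6.33 CPM (-0.07, 95% interval -0.24 to 0.10). Exons of Gm45233 on the same strand cover 58.3% of its exon sequence. Gm45233 was listed at 0 counts in all libraries, so that the level of Etfb is uncertain as well.

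The acyl-CoA thioesterases, which release free fatty acids from coenzyme A, held both ends of the range. Acot1, the cytosolic enzyme, and Acot2, the mitochondrial one, are neighbours on chromosome 12 (Acot2, 83987861 to 83993873; Acot1, 84009490 to 84018371, both plus strand), and their coding sequences of 1260 and 1362 bases were identical at 1180 of 1239 aligned bases (95.2%). The longest run without a difference was 273 bases, more than a 50-base read can span. The stretch of 60 coding bases with the most differences is shown. Within the aligned coding bases, only reads over such differences can be assigned to one of the 2 genes. Capitals mark the 13 bases that differ (GENCODE M21 transcripts, GRCm38, plus strand, Acot1 chr12:84016942-84017001, Acot2 chr12:83992664-83992723):
Acot1: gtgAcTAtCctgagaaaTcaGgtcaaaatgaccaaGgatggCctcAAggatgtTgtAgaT
Acot2: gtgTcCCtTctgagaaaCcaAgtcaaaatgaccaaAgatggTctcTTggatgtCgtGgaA
Of the 50-base windows of their transcripts, 19.3% of Acot1 and 27.7% of Acot2 occur in another gene, mainly of the same family.

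Acot2 (ENSMUSG00000021226) was at 55.7, 58.9, 73 and 63.3 CPM in WT and at 238.7, 220.2, 239.2 and 229.2 CPM in TAZG197V. With TMM scaling it was the single gene of the 37 that rose more than 1.5-fold. The fitted rise was 3.65-fold (log2 fold change 1.87 ± 0.0865, edgeR adjusted p = 3.63e-06), and it ran from 1.79 to 2.13 over the 18 alternative fits. Acot1 (ENSMUSG00000072949) was at 8.59, 8, 10.1 and 14.1 CPM in WT and at 3.74, 3.59, 3.87 and 5.94 CPM in TAZG197V. Both number 4 libraries were the highest of their genotype, and the genotypes did not overlap. Acot1 fell by 59.4% (-1.30 ± 0.0987, edgeR adjusted p = 4.96e-05), with a range of -1.38 to -1.02 over the alternatives.

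Within a library there were 4.48 to 7.36 counts of Acot2 per count of Acot1 in WT and 38.6 to 63.8 in TAZG197V. These counts came to 254 to 316 for Acot1 in WT and 103 to 162 in TAZG197V, and to 1417 to 2143 and 6251 to 8161 for Acot2. How reads of the shared windows were treated was not stated, so the exact sizes are uncertain. Acot13, a thioesterase associated with mitochondria, was at 221.9 ± 38.2 and 197.2 ± 13 CPM (-0.18, 95% interval -0.39 to 0.04, edgeR adjusted p = 0.167).

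The peroxisomal genes differed in sign. Ehhadh (ENSMUSG00000022853, chromosome 16, 21761287 to 21787807), the L-bifunctional enzyme, was at 17.2, 15.9, 22.2 and 30.4 CPM in WT and at 14.4, 11.8, 12.6 and 11.3 CPM in TAZG197V. WT 4 was well above the other WT libraries, and the lowest WT value lay close above the highest TAZG197V value. The log2 fold change was -0.82 ± 0.128 (edgeR adjusted p = 0.00158). It was -0.54 without WT replicate 4 (edgeR adjusted p = 0.0111) and likewise -0.54 without TAZG197V replicate 4 (0.0136), and -0.49 without both number 4 libraries (0.00695). Within lane 7, which holds neither of the number 4 libraries, the difference in mean log2 CPM was -0.34, against -1.13 within lane 8.

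Hsd17b4, the D-bifunctional enzyme, was at 111.3, 106, 113.8 and 112 CPM in WT and at 123.9, 129.7, 129.2 and 124.5 CPM in TAZG197V. Acaa1a, a peroxisomal thiolase, was at 53.8, 46.8, 53.6 and 50.9 CPM in WT and at 57.8, 60, 57.2 and 57.7 CPM in TAZG197V. All TAZG197V values were above all WT values for both genes. The log2 fold changes were 0.18 ± 0.0481 (edgeR adjusted p = 0.0173) and 0.17 ± 0.0562 (0.0469), below the rise of 15% that a call required. Hsd17b4 was called higher without WT replicate 4 (0.20, edgeR adjusted p = 0.0204), without TAZG197V replicate 4 (0.21, 0.0247), without both (0.21, 0.0176), without the low-count filter (0.21, 0.0327) and with scaling to ventricular markers. Over the fits without 1 library, the edgeR adjusted p reached up to 0.0671 for Hsd17b4 and 0.144 for Acaa1a. Of the windows of Acaa1a 17.1% occur in other genes, mainly Acaa1b, whose highest count in a library was 4.

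To compare partner genes without any scaling, the log2 ratio of counts was taken within each library and the difference between genotypes was tested by an exact permutation test, two-sided, with adjustment over the 4 ratios. With 4 against 4 libraries, 70 splits are possible and the smallest p is 0.0286. The ratio of Acsl4 to Acsl1 was -5.85 ± 0.166 in WT and -5.33 ± 0.117 in TAZG197V, a difference of 0.52 with no overlap (exact permutation p = 0.0286, adjusted p = 0.0571). The ratio of Hadha to Hadhb was 2.73 ± 0.0451 and 2.61 ± 0.0452, a difference of -0.12 with no overlap (exact permutation p = 0.0286, adjusted p = 0.0571). The ratio of Etfa to Etfb was 2.92 ± 0.0676 and 2.72 ± 0.166, a difference of -0.20 (exact permutation p = 0.0571, adjusted p = 0.0762), and TAZG197V 4 lay inside the WT range. The ratio of Cpt1a to Cpt1b, which carries the uncertain level of Cpt1b, was 1.99 ± 0.416 and 2.01 ± 0.204, a difference of 0.03 (exact permutation p = 0.914), with WT libraries spread from 1.53 to 2.54. No ratio passed 0.05 after adjustment, and the adjusted values of the first pair of ratios were the smallest that 2 ratios at the smallest p could give here.

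**Figure D4:**
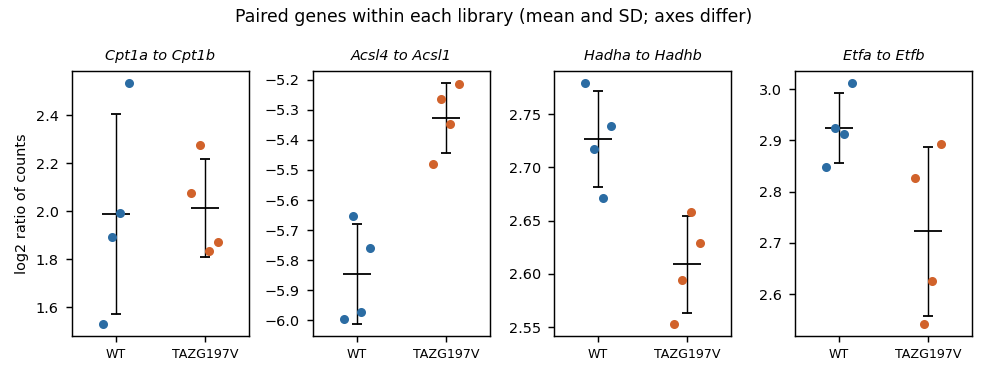
Log2 ratio of the counts of partner genes within each library (y axis, a separate range in each panel) in WT and TAZG197V; points are the 4 libraries of each genotype, and black bars the mean and SD. The genotypes do not overlap for Acsl4 to Acsl1 and for Hadha to Hadhb, and they overlap for the other ratios.

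A further 39 genes of fatty acid transport, activation, carnitine synthesis and peroxisomal oxidation were taken as the surroundings of the pathway, of which 36 were tested. Of these, 15 (41.7%) were called lower and 5 (13.9%) higher, against 15.1% and 18.5% of all genes. The median log2 fold change was -0.11. With scaling to ventricular markers the numbers were 6 and 13, where 6.01% and 37.7% of all genes were called. Among the called genes, the largest falls were those of Acsl6, a synthetase best known from brain (19.9 ± 5.64 to 8.71 ± 2.54 CPM, -1.25, edgeR adjusted p = 0.000235), and Abcd2, a peroxisomal importer of very long-chain acyl-CoA (8.99 ± 1.11 to 4.86 ± 0.702 CPM, -0.88, edgeR adjusted p = 0.000891). Acot7, a cytosolic thioesterase, followed (57 ± 1.11 to 37.6 ± 9.11 CPM, -0.61, edgeR adjusted p = 0.00191), with TAZG197V 4 at 50.8 CPM and the other TAZG197V libraries at 29.9 to 35.5 CPM. Acot3, a peroxisomal thioesterase, had a lower fitted value (-2.64, edgeR adjusted p = 0.00622) but too few counts for a call, at 0.867 ± 0.307 and 0.144 ± 0.163 CPM, and shares windows with its relatives. It was singled out after its values were seen.

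The genes called higher were Slc22a4 (0.90), Acaca (0.66), Acot9 (0.59), Decr2 (0.38) and Acad9 (0.21). Slc22a4 encodes the carnitine and ergothioneine transporter OCTN1, at 5.17 ± 0.487 CPM in WT and 9.79 ± 2.11 CPM in TAZG197V (edgeR adjusted p = 0.00391). Acaca, the acetyl-CoA carboxylase of the cytosol, makes malonyl-CoA and was at 6.17 ± 0.403 and 9.67 ± 0.663 CPM (edgeR adjusted p = 0.00112). Of the windows of Acaca, 30.4% occur in other genes. Acacb, the mitochondrial acetyl-CoA carboxylase, was called lower (434.9 ± 75.9 and 329.5 ± 16.1 CPM, -0.44, edgeR adjusted p = 0.00123). Acot9 is a mitochondrial thioesterase (19.9 ± 2.6 and 29.2 ± 4.39 CPM, edgeR adjusted p = 0.005), and 15.15% of its windows occur in other genes, mainly Acot10. The number called higher was 3 without TAZG197V replicate 1 and without TAZG197V replicate 2, and 8 without both number 4 libraries. In these fits 14.8%, 13.9% and 18.6% of all genes were called higher. Lpl, the lipoprotein lipase, and Slc25a20, the carnitine-acylcarnitine carrier of the inner membrane, were among those called lower at -0.53 (edgeR adjusted p = 0.0137) and -0.39 (0.00339), and, like Acacb, Decr2 and Acad9, were named after their values were seen. Slc27a6, Bbox1 and Acaa1b were not tested, with at most 19, 5 and 4 counts in a library.

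Promoter windows from 250 bases before to 50 bases after the start of transcription were available in the RefSeq table (GRCm38.p6) for 31 of the 37 genes. They were searched on both strands for motifs of the factors known to act on this pathway. The nuclear receptor half-site AGGTCA occurred in 5 of 31 (16.1%), in Cd36, Cpt1a, Acadvl, Acadm and Echs1, and in 18.1% of all genes with a window. Of these 5, only Acadm was called lower. The PPAR element, written as 2 copies of this half-site with 1 base between, was found in 0 of 31 and in 0.0481% of all genes, and the ERR element TCAAGGTCA, which contains the half-site, in 0 of 31 and 0.466%. Only these exact spellings were searched, and 13 and 126 of 27025 genes hold them. At such shares, 0 of 31 does not show that the members lack these elements. The composite element of ATF4, written as TGATGCAA or TGATGAAA, was found in 2 of 31 (6.45%), Fabp3 and Echs1, and in 2.16% of all genes.

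The 30 bases around each match in Fabp3, Echs1 and Acadm are shown with the match in capitals, written along the strand of the gene, because they set a gene called higher, one not called and one called lower side by side. In Fabp3 (chr4:130308676-130308705, plus strand, bases 51 to 44 before the start) the ATF4 element is read on the opposite strand, in Echs1 (chr7:140116567-140116596, minus strand) along the gene, and in Acadm (chr3:153944864-153944893, minus strand) the half-site is read on the opposite strand:
Fabp3: gtgtgggccacTTTCATCAtgtgatgcgag
Echs1: caccaccaaagTGATGCAAttaacagacta
Acadm: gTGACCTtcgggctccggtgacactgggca
Positions are counted from the RefSeq start. The stretch of Fabp3 lies inside the gene as annotated in GENCODE, which begins at 130308595. A match is a description of the letters in these windows and does not show that a factor binds there.

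The ventricular markers were themselves lower in TAZG197V, with a summed 53814 to 57715 CPM against 60496 to 71368 CPM in WT, and 3 of the 9 were called lower and 1, Myh7, higher. When libraries were scaled to their sum, Acsl1, Cpt2, Acads, Hadh, Acaa2, Etfdh, Acot1 and Ehhadh were still called lower, and Fabp3, Hsd17b10 and Acot2 still higher. Crot (0.32), Hadhb (0.22), Hsd17b4 (0.44) and Acaa1a (0.43) were then called higher, close to the median of all genes at 0.23 in the case of Hadhb. The part of the composition of the tissue in these values was not tested. Fibroblast markers summed to 1139 to 1848 CPM in WT and 790 to 1148 CPM in TAZG197V, and endothelial markers to 737 to 1010 and 574 to 786 CPM.

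**Figure D5:**
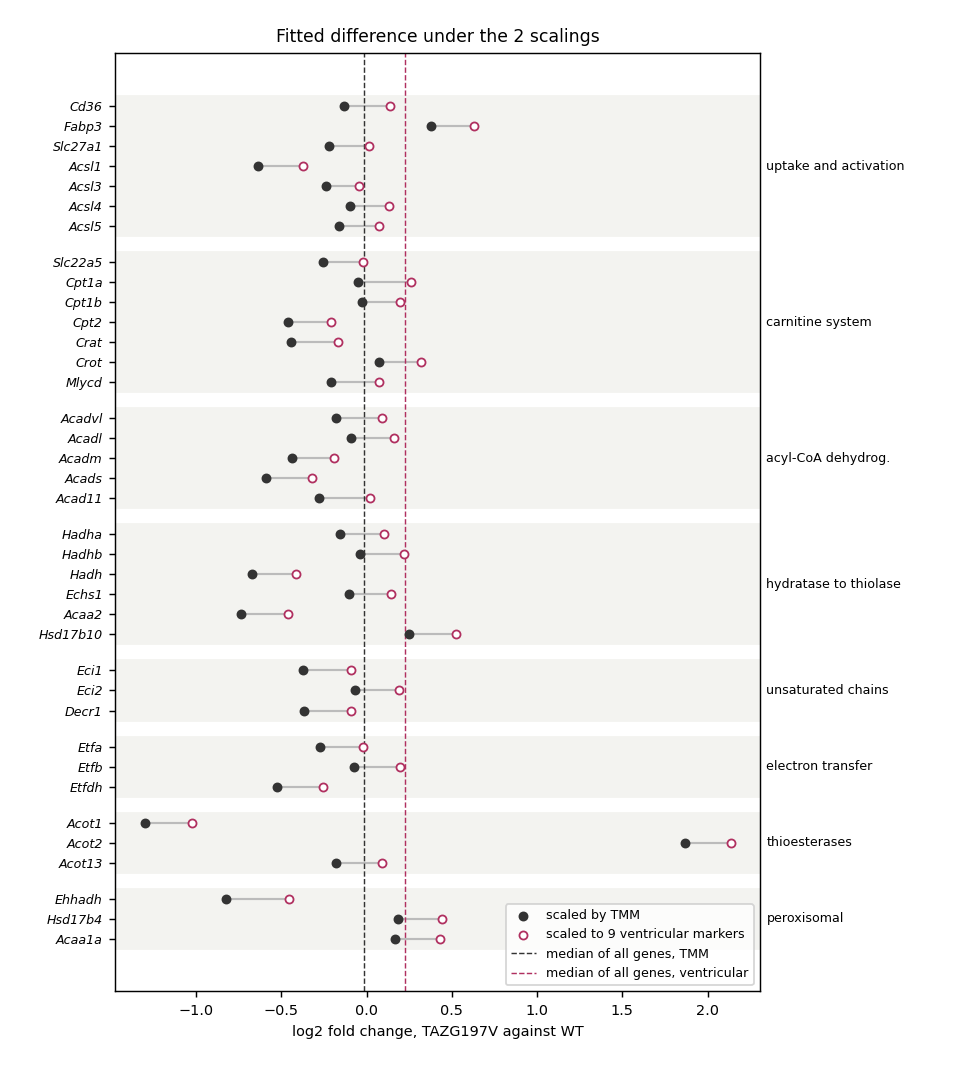
Log2 fold change of TAZG197V against WT (x axis) for each gene by pathway stage (y axis) with TMM scaling (filled points) and with libraries scaled to 9 ventricular markers (open points); dashed lines mark the median of all genes tested under each, at -0.01 and 0.23. Every gene moves to the right, and 8 of the 17 genes called lower with TMM scaling remain called lower.

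Single libraries weighed on the members to different degrees. WT 2, which held atrial and adipocyte RNA, was the lowest WT library for 24 of the 37 genes, and without it 18 members were called lower (12.8% of all genes in that fit). The genotypes then did not overlap for 22 members in place of 17, of which 19 lay lower and 3 higher, against 16.4% and 21.4% of all genes. WT 1 was the highest WT library for 18. Without both number 4 libraries 14 members were called lower and 4 higher, against 15.5% and 18.6% of all genes. All 20 called members had the reported sign in both sequencing lanes when the means of log2 CPM were compared within lane 7 (libraries 1 and 2 of each genotype) and within lane 8 (libraries 3 and 4), the lane being read from the names of the deposited tables and given in no label. With 2 against 2 libraries no test was made within a lane. Cpt1a, Cpt1b and Hadhb differed in sign between the lanes.

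Per kilobase of transcript, taken from the coding transcript with the longest reading frame of each gene, the highest WT levels were those of Fabp3 (966.9 CPM), Acaa2 (657.8), Cd36 (645.8), Acadm (579.4) and Acadl (574.1). In TAZG197V the order at the top was Fabp3 (1249), Cd36 (599.5), Acadl (543.4), Acadm (429.8) and Acaa2 (401.3). Acot2 was at 28.6 CPM per kilobase in WT and at 105.6 in TAZG197V, and thus passed from below to above Cpt2, at 111.7 in WT and 81.8 in TAZG197V. Acot1, at 4.48 and 1.89 CPM per kilobase, was among the lowest in both genotypes, near Acsl3, Acsl4 and Acsl5.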

How the data were processed

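The authors sequenced reads of 50 bases from 500 ng of heart RNA per sample, demultiplexed them with bcl2fastq 2.20.0, aligned them to mm10 with STAR 2.7.3a (2 mismatches allowed) and counted reads over exons with featureCounts of Subread 2.0.0. The deposited tables hold, for each Ensembl gene, raw read counts. The annotation release, strand setting and handling of reads with several alignments are not given in the sources used here. ERCC spike-in rows held 0 counts. Symbols and positions came from GENCODE M21 (GRCm38). Total counts were 23055689 to 36301031 per library.

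Counts were fitted in R 4.3.3 with edgeR 4.0.16 (filterByExpr, TMM, quasi-likelihood F-test, two-sided) with 2 surrogate variables from svaseq (sva 3.50.0, seed 1), after the study's correction. The standard error was the log2 fold change divided by the root of F. The procedure was tested on simulated data. These held no shared unwanted variation and no admixed tissue, so they do not test the correction by surrogate variables. Alternatives were DESeq2 1.42.0, other covariates, scalings, filters and cut-offs, and omission of libraries. Within a genotype libraries differed by at least 10.2 in chi-square per gene, so none was the same library sequenced again. Whether any came from the same heart was not tested. P-values of the main fit measure the spread between these hearts that was left after the 2 surrogate variables. The first of these was highest in WT 4 (0.47) and TAZG197V 4 (0.72). The second had its most extreme value in WT 2 (-0.84). Without surrogate variables 14 members were called lower, against 11.8% of all genes. Windows of 50 bases of each transcript were looked up in all other transcripts. Reads carry no molecular identifiers.

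The members and lists were chosen with earlier results of these data known. All 37 members may be named, of the other pathway genes the 3 called genes with the largest fall and the 3 with the largest rise, markers beside a result, and Taz. A gene named beyond this is marked in the text. Promoter sequence was not used here for Cpt1b, Crat, Acot13, Decr1, Acaa2 and Hsd17b4.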

Additional observations from a re-analysis of the deposited data

Results flagged for a closer look

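Among 82 sets of 4 libraries of a genotype, made up of the 37 genes and 4 ratios in each genotype, 3 were marked by Dixon's test for a single extreme value (95% level), which divides the distance between this value and the next by the spread from lowest to highest. Chance gives about 1 in 20, or 4.1 of 82. Decr1 was low in WT 2 (0.868 of the range on the log2 scale), at 439.9 CPM against 508.1 to 519.3 CPM in the other WT libraries. WT 2 was also the library with the most atrial and adipocyte RNA. Etfdh was high in TAZG197V 3 (0.942), at 570.6 CPM against 547.5 to 548.8 CPM, a small step among tightly grouped values. Acot1 was high in TAZG197V 4 (0.849), at 5.94 CPM against 3.59 to 3.87 CPM, and TAZG197V 4 held the most brain RNA. The part of these admixtures was not tested, and all 3 genes were called lower without the library concerned.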

How the results depend on the processing

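Of the 20 called members, 9 were called the same way in all 18 alternative fits and 15 in all 8 fits without 1 library, and 357 of 360 values kept their sign. With scaling to ventricular markers, chosen after seeing the data, 8 members were called lower and 7 higher, and of the other pathway genes 6 lower and 13 higher, against 6.01% and 37.7% of all genes. Members without overlap were then 8 lower and 10 higher. A fold change of 1.5 left by construction 6 members lower and 1 higher and 4 and 3 other genes, against 5.6% and 6.62% of all genes. Members called higher numbered 1 without surrogate variables and 1 with lane as covariate, where 16% and 16.1% of all genes were called higher. Without both number 4 libraries, 8 other pathway genes were called higher, against 18.6% of all genes. With 1 library left out, members called lower ran from 14 to 18 and higher from 1 (without TAZG197V replicate 2) to 4, while 10.2% to 13.9% of all genes were called lower and 13.9% to 17.6% higher, other genes called lower from 12 to 15 and higher from 3 to 7, and members without overlap from 17 to 22, with 14 to 19 lower and 3 to 5 higher, against 15.1% to 19% and 20.1% to 23.4% of all genes. The differences in log2 ratio then ran from -0.13 to 0.21 for Cpt1a to Cpt1b, whose sign turned without WT replicates 1 (-0.13) and 2 (-0.0058) and TAZG197V replicate 2 (-0.061), from 0.47 to 0.58 for Acsl4 to Acsl1, from -0.14 to -0.10 for Hadha to Hadhb and from -0.26 to -0.14 for Etfa to Etfb.

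Signs of single genes turned with scaling to ventricular markers for Cd36 (0.14), Slc27a1 (0.015), Acsl4 (0.13), Acsl5 (0.073), Cpt1a (0.26), Cpt1b (0.20), Mlycd (0.072), Acadvl (0.090), Acadl (0.16), Acad11 (0.020), Hadha (0.10), Hadhb (0.22), Echs1 (0.14), Eci2 (0.19), Etfb (0.20) and Acot13 (0.090). That of Cpt1a turned without the low-count filter (0.083) and without both number 4 libraries (0.17), and that of Hadhb without both number 4 libraries (0.0043). With 1 library left out, values ran from -0.16 to 0.15 for Cpt1a, from -0.099 to 0.053 for Cpt1b and from -0.070 to 0.0051 for Hadhb. Slc27a1, Mlycd and Acad11 were the called members among these. The cause was not tested.

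Libraries with the same number correlated in their deviations from the genotype means at 0.277, 0.0436, 0.28 and 0.416. Pairing was taken to need over 0.1 in every pair, which number 2 missed, and WT 3 correlated more with TAZG197V 2 (0.317) than with its own number. With the replicate block, 15 members were called lower and 3 higher, and 13 and 5 of the other genes, with 12.2% and 16.2% of all genes. Mlycd (edgeR adjusted p = 0.181) and Acad11 (0.075) were the members lost. Under this block the differences in log2 ratio were the same and the smallest exact permutation p was 0.125.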
